A study of Mus musculus with 10 samples.

Results

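The genes described here are 8 that background knowledge places in the medial habenula: Tac2, Chrna3, Chrnb4, Chrnb3, Gng8, Nhlh2, Gpr151 and Pou4f1. They were chosen with earlier results of these data known, because their levels rose together on a single array, that of PGC-1αf/f replicate 2. They were thus selected on their measured levels on that array and on their co-variation over the 10 arrays, so these values are given as a description without a test. The 8 genes, of 23462 genes named on the array, were measured by 9 probes, 1 probe for each of 7 genes and a pair of probes for Pou4f1. Of that pair, only 1 rose with the other genes on PGC-1αf/f replicate 2.

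Total RNA came from the hippocampus of mice labelled male and 12 weeks old, with 5 arrays per group and 1 sample on each. PGC-1αf/f mice carry a PGC-1α transgene at the Rosa26 locus that a floxed PGK-neo-STOP cassette keeps silent. nPGC-1α mice carry the same transgene together with Eno2-cre, in which the promoter of neuronal enolase drives Cre, so that the cassette is removed in neurons. Both groups were sampled in basal conditions, and the only comparison that the labels define is nPGC-1α against PGC-1αf/f. It asks how PGC-1α, a coactivator of mitochondrial genes, alters hippocampal expression when raised in neurons. Whole tissue was used, so fewer cells of a type and less RNA per cell cannot be told apart, and the labelled cell type, neuron, is not a sorted population.

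The medial habenula is a small paired nucleus at the dorsal edge of the thalamus, beside the third ventricle and beneath the hippocampus. Its neurons project through the fasciculus retroflexus to the interpeduncular nucleus, and they release glutamate together with acetylcholine or a tachykinin. They are known for dense nicotinic receptors built around the alpha3 and beta4 subunits, and are studied for their part in nicotine aversion, withdrawal and anxiety. The transcription factor Pou4f1, also called Brn3a, is required for habenular neurons to form.

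Promoters of 6 of the 8 genes (Nhlh2, Gng8, Chrna3, Chrnb4, Tac2 and Pou4f1) were found in RefSeq tables of build GRCm38.p6. The following sequences are shown because the genes moved together on 1 array, Pou4f1 by only 1 of its probes. They are also shown because they hold the letters CAGCTG, a form of the E-box that basic helix-loop-helix factors such as Nhlh2 can bind. Each is the stretch of 250 bases before the transcript start, written 5′ to 3′, with CAGCTG in capitals.
Chrnb4 promoter, chr9:55048545-55048794, minus strand: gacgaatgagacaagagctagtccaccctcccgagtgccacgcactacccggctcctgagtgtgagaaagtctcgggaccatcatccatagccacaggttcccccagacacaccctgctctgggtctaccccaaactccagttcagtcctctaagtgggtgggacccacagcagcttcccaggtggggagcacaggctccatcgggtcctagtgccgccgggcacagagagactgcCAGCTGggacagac
Tac2 promoter, chr10:127724228-127724477, plus strand: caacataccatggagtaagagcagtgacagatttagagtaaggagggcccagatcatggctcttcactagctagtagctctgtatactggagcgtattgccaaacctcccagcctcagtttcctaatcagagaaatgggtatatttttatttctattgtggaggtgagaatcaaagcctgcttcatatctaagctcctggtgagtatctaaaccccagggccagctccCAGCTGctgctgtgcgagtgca
Pou4f1 promoter, chr14:104468000-104468249, minus strand: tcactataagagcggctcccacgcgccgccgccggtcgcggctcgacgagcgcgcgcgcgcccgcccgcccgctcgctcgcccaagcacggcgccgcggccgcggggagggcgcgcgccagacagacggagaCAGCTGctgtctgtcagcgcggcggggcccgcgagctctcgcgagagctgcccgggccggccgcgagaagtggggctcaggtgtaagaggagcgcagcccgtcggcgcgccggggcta
In the searched window of 300 bases, which also takes in 50 bases after the start, CAGCTG was present in 4 of the 6 promoters (Chrnb4, Nhlh2, Pou4f1 and Tac2) and in 16.3% of all 32851 promoters. The looser E-box CANNTG was found in 5 of 6 and in 72.3% of all, and it includes every CAGCTG. In all, 13 motifs were searched on both strands. Of motifs of the kind that POU-homeodomain factors can bind, ATTAAT was in 0 of the 6, and the same held for CATTAAT that contains it (1.96% of all promoters), for ATAATTAAT that contains it too (0.274%), for ATGAATAAT (0.310%), for TAATTA (5.29%), for CGCATAAT (0.0761%) and for GCATAA (6.35%). The counts were also 0 of 6 for the repressor motif CAGCACC (7.14% of all promoters), for the TATA box TATAAA (13.6%) and for the GC box GCCCCGCCC (11.0%), and at such shares 0 of 6 says little. The shorter CCGCCC, which GCCCCGCCC contains, was in 3 of 6 (Chrna3, Gng8 and Pou4f1) and in 35.7% of all promoters. These are matches of letters, not binding sites, and ATTAAT itself was in 4.75% of all promoters. GC content ran from 43.3% to 78.3% over the 6 promoters, against a median of 52.7% over all. In the same annotation Chrna3 and Chrnb4 are neighbours 1591 bases apart, and Chrna3 overlaps Chrna5 by 1304 bases.

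Levels are given as log2 of the processed signal after division by the array's own 75th percentile, so that 0 is that percentile. A deviation is the level on an array minus the median of the other 9 arrays. Levels of different probes cannot be set against each other.

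The 75th percentile of the processed signal lay between 3883 and 5253 on the 10 arrays. A larger share of spots cleared the background on the PGC-1αf/f arrays (74.5% to 81.5%) than on the nPGC-1α arrays (67.2% to 73.4%). The groups lay in different rows of slide 1, where group and row position cannot be told apart. All 12 hippocampal neuron markers were well above background on all 10 arrays. Ppargc1a, the gene that was to be overexpressed, had a level of 2.06 to 2.34 on every array and a group difference of 0.00, by a probe that need not lie in the transgene. The Y-linked transcripts Ddx3y, Kdm5d and Uty were well above background together on 4 arrays, the first of PGC-1αf/f and replicates 1, 3 and 5 of nPGC-1α, and not on the other 6, against the male label. PGC-1αf/f replicate 2 is 1 of these 6 and had the highest Xist level (-2.43). There the Y-linked Eif2s3y had a low but clear level by its probe A_51_P479715 (-6.16). Its other probe, A_55_P2846101, was not well above background on that array (-9.73).

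On PGC-1αf/f replicate 2, 7 of the 8 genes were at their highest level of all 10 arrays, by the probe that stands for each gene. Among all probes with a value there, 16.1% of 53811 were highest on that array. By measured signal the same 7 genes were over 2-fold above the median of the other arrays, against 3.61% of all probes that were both over 2-fold higher and well above background. For Chrnb3 that median is of spots without a clear signal, which leaves 6 genes with a fold. Its place as highest rests on measured signal alone, below what other arrays could show clearly. These shares describe the choice of the genes, and nothing is read from them. Pou4f1, the remaining gene, did so only by its dimmer probe, so that 8 of 9 probes moved. All 9 probes were well above background on that array, with a signal error of at most 19.5%. Their spots lay at least 22.0 spot positions apart, and none was saturated. The median deviation over the 8 genes was 2.02 there and -0.22 to 0.19 on the other 9 arrays. The value of 2.02 lies between Chrna3 and Chrnb3 and so rests in part on the measured Chrnb3 signal. With values raised to a common floor it was 1.69.

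**Figure D1:**
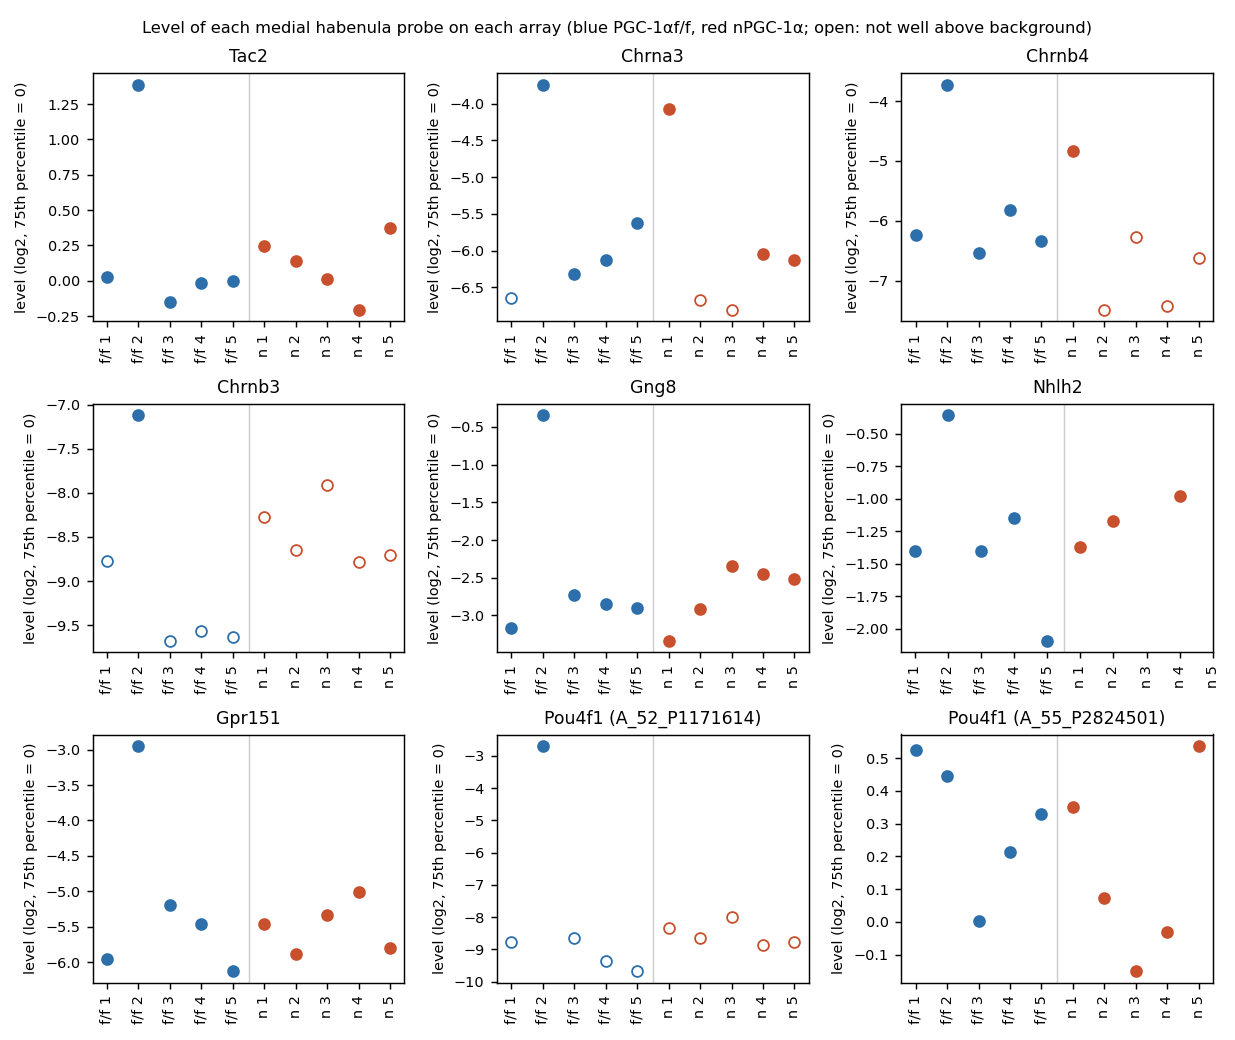
Level (log2, 75th percentile of the array = 0) of each of the 9 probes on each of the 10 arrays, PGC-1αf/f replicates in blue and nPGC-1α replicates in red, with filled points for spots well above background and open points for the rest. PGC-1αf/f replicate 2 is the highest point in 8 of the 9 panels, and nPGC-1α replicate 1 is raised with it for Chrna3 and Chrnb4. Each panel has its own axis, and 2 Nhlh2 spots marked as outliers are left out.

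The peptide of the set is Tac2, the precursor of neurokinin B, which acts on the receptor Tacr3. Its levels on PGC-1αf/f replicates 1 to 5 were 0.03, 1.39, -0.15, -0.01 and 0.00. On nPGC-1α replicates 1 to 5 they were 0.25, 0.14, 0.01, -0.21 and 0.37. Replicate 2 of PGC-1αf/f stood alone, 2.60-fold above the median of the other arrays and 1.02 above the next highest on the log2 scale, while the other 9 arrays of both groups overlapped. The probe was well above background on all 10 arrays. None of the other tachykinins and tachykinin receptors (Tac1, Tac4, Tacr1, Tacr2 and Tacr3) was over 2-fold higher on that array, and their median deviation was 0.04.

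Chrna3 encodes the alpha3 nicotinic subunit, which binds acetylcholine together with a beta subunit. Its levels were -6.65, -3.74, -6.32, -6.12 and -5.62 on PGC-1αf/f replicates 1 to 5. They were -4.08, -6.67, -6.81, -6.05 and -6.13 on nPGC-1α replicates 1 to 5. An array from each group was therefore high, PGC-1αf/f replicate 2 with a deviation of 2.39 (5.23-fold) and nPGC-1α replicate 1 with 2.05 (4.13-fold), and the other 8 arrays lay between -6.81 and -5.62. The spot was well above background on 7 arrays and not on the first PGC-1αf/f array or on nPGC-1α replicates 2 and 3, so both folds are measured partly against arrays without a clear signal.

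Chrnb4 encodes the beta4 subunit, the usual partner of alpha3 in the medial habenula. On PGC-1αf/f replicates 1 to 5 its levels were -6.24, -3.72, -6.54, -5.81 and -6.34, all well above background. On nPGC-1α replicates 1 to 5 they were -4.84, -7.49, -6.28, -7.43 and -6.62, of which only replicate 1 was well above background. The order was as for Chrna3, with PGC-1αf/f replicate 2 highest at a deviation of 2.62 (6.15-fold) and nPGC-1α replicate 1 next at 1.51 (2.84-fold). Both folds are again measured partly against arrays without a clear signal. On PGC-1αf/f replicate 2 the deviation was 2.02 with values raised to a common floor and 1.35 with normexp. Chrna5, which encodes an accessory subunit and overlaps Chrna3 in the genome, was not raised with its neighbours, with deviations of -0.13 and 0.04 on these arrays.

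Chrnb3 encodes the accessory beta3 subunit. It was well above background only on PGC-1αf/f replicate 2, with a processed signal of 32.7 and an error of 6.36. On the other 9 arrays its signal was 5.42 to 21.8 with errors of about the size of the signal, and no fold can be given. The lowest clear signal was 25.2 on PGC-1αf/f replicate 2, 41.2 on PGC-1αf/f replicate 1 and 50.4 to 97.9 on the nPGC-1α arrays. The signal of 32.7 lies below that limit on PGC-1αf/f replicate 1 and on every nPGC-1α array. With values raised to a common floor the deviation of Chrnb3 was 0. Over the 13 nicotinic subunits that are no members, the median deviation on PGC-1αf/f replicate 2 was -0.02 and 0 were over 2-fold higher. Chrnb1 was the single one at its highest there.

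Gng8 encodes a G protein gamma subunit. Its levels on PGC-1αf/f replicates 1 to 5 were -3.16, -0.34, -2.73, -2.85 and -2.91. On nPGC-1α replicates 1 to 5 they were -3.34, -2.91, -2.34, -2.45 and -2.51. The PGC-1αf/f array that was high was 5.69-fold above the median of the others, and nPGC-1α replicate 1, high for Chrna3 and Chrnb4, was here the lowest of all 10 with a deviation of -0.61. The spot was well above background on every array. Of the 11 other gamma subunits, 0 were over 2-fold higher on PGC-1αf/f replicate 2 and 0 were at their highest there.

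Gpr151 encodes an orphan G protein-coupled receptor carried on habenular axons. On PGC-1αf/f replicates 1 to 5 its levels were -5.95, -2.95, -5.19, -5.46 and -6.13. On nPGC-1α replicates 1 to 5 they were -5.47, -5.88, -5.34, -5.01 and -5.81. The pattern was that of Gng8, with 1 array 5.74-fold above the median of the others, a gap of 2.07 on the log2 scale to the next array, and no rise on nPGC-1α replicate 1 (deviation -0.01). It too was well above background on all 10 arrays.

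Of the transcription factors, Pou4f1 gave a single bright array by its probe A_52_P1171614. There its processed signal was 706 with an error of 70.8 on PGC-1αf/f replicate 2. On the other 4 PGC-1αf/f arrays it was 6.12 to 12.7 and on the 5 nPGC-1α arrays 10.6 to 20.7, in no case well above background. The array was at least 8.34-fold higher than any other, set against the highest value that the others' own signals or their lowest clear signal allow. The deviation of 6.07 in its measured log2 signal is set against spots without a clear signal, and only the bound gives a fold.

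The brighter probe of Pou4f1, A_55_P2824501, did not follow. Its levels were 0.53, 0.45, 0.00, 0.21 and 0.33 on PGC-1αf/f replicates 1 to 5, and 0.35, 0.07, -0.15, -0.03 and 0.54 on nPGC-1α replicates 1 to 5. The groups overlapped, and PGC-1αf/f replicate 2 lay 0.23 above the median of the others. Both probes carry the same transcript record, and which of them follows Pou4f1 RNA was not tested. Pou4f2, a close relative, was well above background only on PGC-1αf/f replicate 2, with a signal of 37.5 against 8.38 to 19.8 elsewhere. A signal of 37.5 lies below the lowest clear signal of PGC-1αf/f replicate 1 (41.2) and of every nPGC-1α array (50.4 to 97.9).

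Nhlh2, a basic helix-loop-helix factor, moved least among the 7. Its levels were -1.41, -0.36, -1.40, -1.15 and -2.09 on PGC-1αf/f replicates 1 to 5 and -1.37, -1.17 and -0.98 on nPGC-1α replicates 1, 2 and 4. PGC-1αf/f replicate 2 was the highest, 2.02-fold above the median of the others, and PGC-1αf/f replicate 5 the lowest. The spots of nPGC-1α replicates 3 and 5 were marked as outliers and dropped, and with them kept the deviation was 0.81. It was 0.92 with median scaling, 0.75 with quantile normalisation, 0.77 with normexp and 0.81 in the authors' values, all under 2-fold. With values raised to a common floor it stayed at 1.01.

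On nPGC-1α replicate 1, 0 of the 8 genes were at their highest, where 10.4% of 51132 probes were. Chrna3 and Chrnb4 were the 2 genes of 8 over 2-fold above the median of the other arrays, where 1.63% of probes were over 2-fold higher and well above background. The members' median deviation there was 0.19. Over 2-fold on both this array and PGC-1αf/f replicate 2 were 52 of 53811 probes (0.0966%), the Chrna3 and Chrnb4 probes among them. nPGC-1α replicate 1 was singled out because Chrna3 and Chrnb4 were high on it, so nothing is read from these shares. Tac2, Gng8, Nhlh2, Gpr151 and the brighter Pou4f1 probe did not share the second rise, with deviations from -0.61 to 0.23. Chrnb3 (0.50) and the dimmer Pou4f1 probe (0.42) had no clear signal on nPGC-1α replicate 1.

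**Figure D2:**
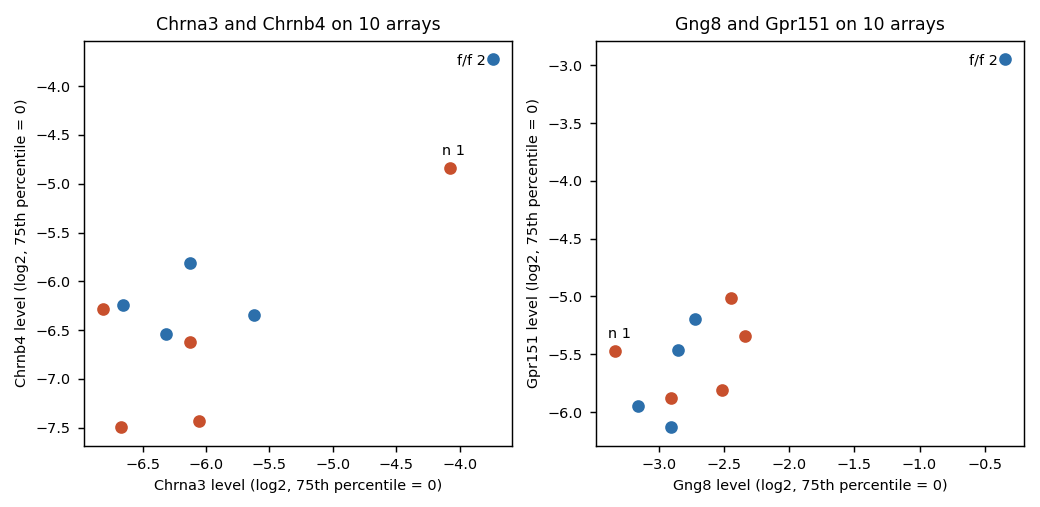
Levels (log2, 75th percentile of the array = 0) of Chrnb4 against Chrna3, and of Gpr151 against Gng8, with 1 point per array, PGC-1αf/f in blue and nPGC-1α in red. PGC-1αf/f replicate 2 (f/f 2) is apart in both panels, and nPGC-1α replicate 1 (n 1) is apart only in the pair of nicotinic subunits.

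Across arrays the members followed each other mainly through PGC-1αf/f replicate 2. Over the 28 pairs of genes, with the dimmer probe for Pou4f1, the median Pearson r was 0.75 on 10 arrays (0.39 to 0.93) and the median Spearman rho was 0.30. Without PGC-1αf/f replicate 2 the median r was 0.12 (-0.56 to 0.81), with 19 of 28 pairs above 0, and without nPGC-1α replicate 1 as well it was 0.01. With the brighter probe in its place the median r over 28 pairs was 0.66 on 10 arrays and 0.068 on 9, and that probe's own 7 pairs ranged from -0.0036 (Nhlh2) to 0.51 (Tac2) on 10 arrays, with a median of 0.13. Chrna3 and Chrnb4 had r of 0.84 over 10 arrays, 0.68 over 9 and 0.09 over 8. Gng8 and Gpr151 had 0.92, 0.44 and 0.64. Chrnb3 and the dimmer Pou4f1 probe, both below clear signal on the other 9 arrays, had 0.81 over 10 and 0.81 over 9. All points share the scaling of their array, and no test is given because the genes were chosen for this pattern.

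Likeness to the members' median deviation was ranked by Pearson r over 19262 probes of named genes that were well above background on all 10 arrays. The 10 genes most like it were Gm5741 (r = 0.94), Nppa (0.94), Spata1 (0.93), Arhgap12 (0.92), Parp9 (0.92), Tyrp1 (0.91), Prrg1 (0.90), Cenpu (0.89), Dennd6a (0.89) and Plk4 (0.88). Over the 9 arrays without PGC-1αf/f replicate 2, the r was -0.58 for Gm5741, -0.39 for Nppa, -0.72 for Prrg1, -0.15 for Plk4, 0.053 for Spata1 and 0.07 for Tyrp1. It was 0.29 for Parp9, 0.34 for Arhgap12, 0.57 for Dennd6a and 0.59 for Cenpu. The 10 genes were picked by their r over 10 arrays, and likeness over the 9 arrays was not tested. Gm5741 was 11.3-fold above the median of the others on PGC-1αf/f replicate 2, Tyrp1, a pigment enzyme, 4.48-fold and Nppa, the atrial natriuretic peptide, 4.05-fold, while the other 7 were 1.22-fold to 1.86-fold higher.

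Among 16 other genes known from the medial habenula, 2 were over 2-fold higher on PGC-1αf/f replicate 2 by measured signal, both of them transporters of the acetylcholine pathway. The choline transporter Slc5a7 was 2.26 above the median of the others by one probe and 2.22 by the other. The vesicular acetylcholine transporter Slc18a3 was at -5.03 there and at -8.50 to -6.62 elsewhere, with a clear signal on only 3 arrays. Set against the others' own signals or their lowest clear signal, Slc18a3 was at least 1.64-fold higher, so a rise over 2-fold is not shown for it. For Chat, which makes acetylcholine, 1 of 3 probes (A_55_P1959430, named after its values were seen) stood at -2.72 against -6.98 to -5.50 elsewhere, while the others deviated by -0.07 and 0.03. By the probe that stands for the gene, Chat was not raised. Over all 16 genes the median deviation was 0.26.

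Markers of neighbouring tissues were examined on the same array. Choroid plexus markers had a median deviation of 1.37 on PGC-1αf/f replicate 2, with 9 of 12 over 2-fold higher (Ttr, Folr1, Aqp1, Otx2, Clic6, Kcne2, Slc4a5, Tmem72 and Calml4), and of 7 ependymal cell markers 6 were at their highest there, with a median deviation of 0.73. Choroid plexus markers were higher still on the array of PGC-1αf/f replicate 4 (2.62) and on that of nPGC-1α replicate 3 (3.58), where the members' medians were -0.02 and 0.06. The summed level of the choroid plexus list, in units of the 75th percentile, reached 14.4 in PGC-1αf/f and 15.4 in nPGC-1α, with 8.03 on PGC-1αf/f replicate 2, and that of the ependymal list was 5.52 to 11.4 and 6.02 to 9.67. The choroid plexus sum of 15.4, on nPGC-1α replicate 3, covers 11 of the 12 markers. The part of these tissues in the members' values was not tested.

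Other lists moved little on PGC-1αf/f replicate 2. Thalamus markers had a median deviation of 0.22 with 0 of 12 over 2-fold higher, and lateral habenula markers 0.23 with Gpr151 alone over 2-fold. Pineal gland markers had 0.07 with 0 of 7, basal forebrain cholinergic markers 0.17 with Zic4 alone (1.35), and hippocampal neuron markers -0.08 with 0 of 12. Summed levels of the members, in the same unit, were 2.48 to 5.84 in PGC-1αf/f, with 5.84 on replicate 2, and 2.16 to 3.07 in nPGC-1α. The sums on nPGC-1α replicates 3 (2.16) and 5 lack Nhlh2 and cover 7 genes, so they cannot be set against sums over 8.

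**Figure D3:**
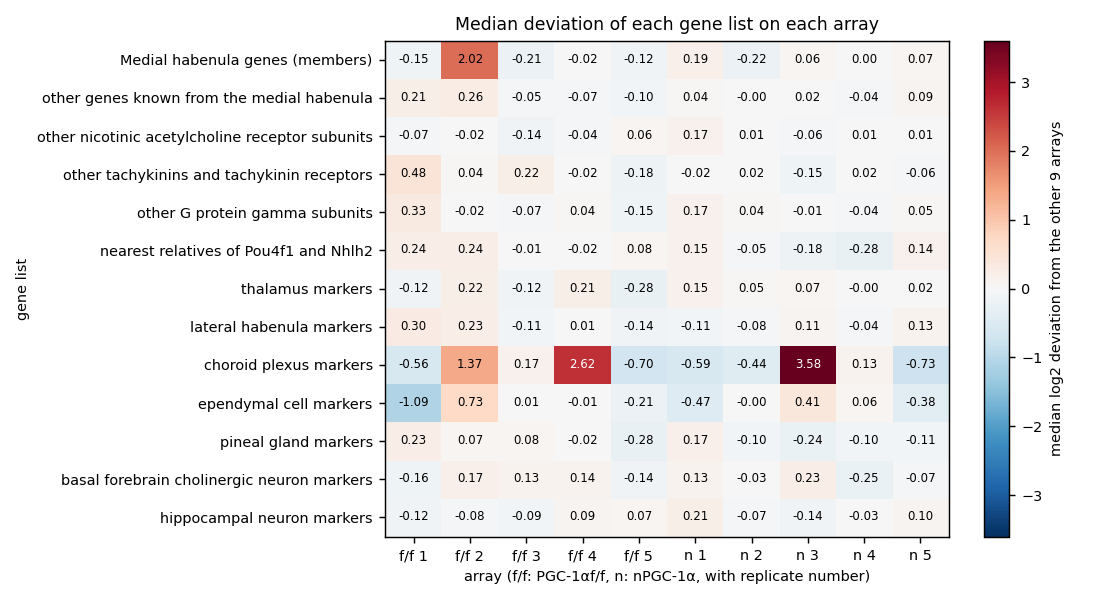
Median log2 deviation from the median of the other 9 arrays for each gene list (rows) on each array (columns, f/f for PGC-1αf/f and n for nPGC-1α), with red for higher and blue for lower. The members are raised on f/f 2 alone (2.02), while choroid plexus markers are raised on f/f 2 (1.37), f/f 4 (2.62) and n 3 (3.58).

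Neuronal PGC-1α overexpression was then compared with its control for these genes. No difference of the 6 tested genes between nPGC-1α and PGC-1αf/f passed the test, as 0 of 6 passed an adjusted p of 0.05 in limma with Benjamini-Hochberg adjustment, and 0 of 6 an unadjusted p of 0.05. Over all 39142 probes the shares were 0.00255% and 11.9%. An exact Mann-Whitney test gave 0 of 6 at both thresholds, and 0 of all probes at an adjusted p of 0.05. With 5 arrays per group the smallest p it can reach is limited, so its lack of calls after adjustment says little. Chrna3 and Chrnb3 were not tested, since neither was well above background on all 5 arrays of a group. The median difference of the 6 was -0.23 on the log2 scale, against -0.04 over all probes, and turned to 0.16 without PGC-1αf/f replicate 2, against -0.03 over all probes.

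The direction of Tac2, Gng8 and Gpr151 turned with PGC-1αf/f replicate 2. With all 10 arrays the differences (nPGC-1α minus PGC-1αf/f, log2) were -0.14 ± 0.27 (SE) for Tac2, -0.31 ± 0.48 for Gng8 and -0.36 ± 0.51 for Gpr151, with adjusted p in limma of 0.859, 0.815 and 0.798. Without that array they were 0.15 ± 0.12, 0.20 ± 0.20 and 0.18 ± 0.23, with adjusted p in limma of 0.816, 0.844 and 0.869. The interval for Gng8 narrowed from -1.36 to 0.74 with the array to -0.25 to 0.65 without it. Without it, 0 of the 6 genes passed an unadjusted p of 0.05, against 7.98% of 38839 probes.

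Chrnb4 differed by -0.80 ± 0.61 with an adjusted p of 0.625 in limma, and by -0.30 ± 0.48 without PGC-1αf/f replicate 2. It entered the test through PGC-1αf/f alone, as 4 of 5 nPGC-1α spots were not well above background, and its difference was -0.22 with values raised to a common floor and -0.17 with normexp. Without nPGC-1α replicate 1, its only clear spot in that group, the measured difference was -1.22. With neither array, a setting chosen after the values were seen, it was -0.72 with an adjusted p of 0.572 in limma, and Gng8 was at 0.36 with an adjusted p of 0.586. There 2 of 5 genes (Chrnb4 and Gng8) passed an unadjusted p of 0.05, beside 8.22% of 38778 probes. Both arrays had been picked because members were extreme on them, so nothing is read from that count.

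Nhlh2 differed by 0.11 ± 0.32 with 3 nPGC-1α values, and Pou4f1, by its brighter probe, by -0.15 ± 0.15, with adjusted p in limma of 0.912 and 0.715. With no filter on dim probes, Chrna3 differed by -0.26 ± 0.63 with an adjusted p of 0.870 in limma. Chrnb3 had no clear signal on any nPGC-1α array, and no difference is given. On slide 1 alone, which held replicates 1 to 4 of each group, the differences were -0.26 for Tac2, -0.93 for Chrnb4, -0.49 for Gng8, -0.54 for Gpr151, -0.24 for Pou4f1 and -0.093 for Nhlh2. Slide 2 held 1 array per group and gave 0.37 for Tac2, -0.27 for Chrnb4, 0.39 for Gng8, 0.32 for Gpr151 and 0.21 for Pou4f1, without a test. With the 6 arrays that go against the male label left out, PGC-1αf/f keeps 1 array, and 4 differences turned positive: Tac2 at 0.18, Chrnb4 at 0.33, Gng8 at 0.43 and Gpr151 at 0.41.

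**Figure D4:**
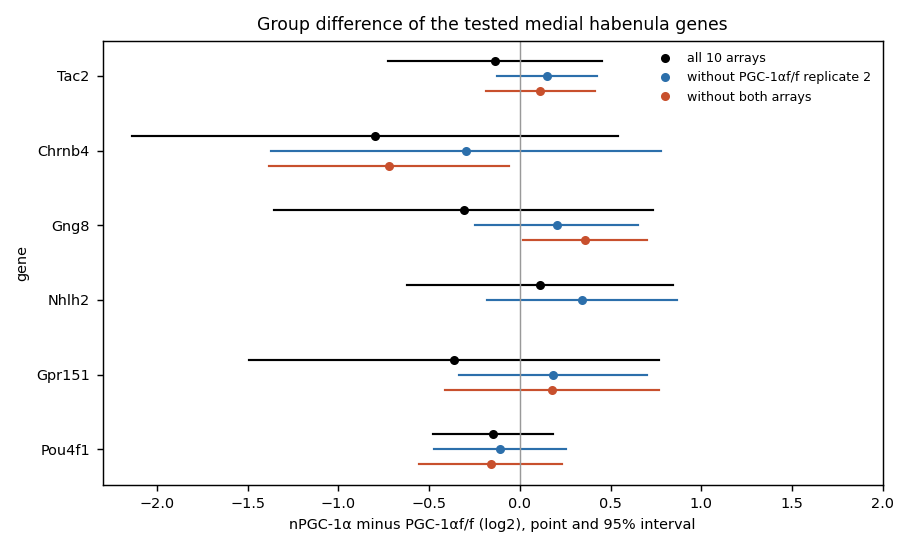
Group difference (nPGC-1α minus PGC-1αf/f, log2) of the 6 tested genes, with points for the estimate and lines for its 95% interval, from all 10 arrays (black), without PGC-1αf/f replicate 2 (blue) and without that array and nPGC-1α replicate 1 (red). Tac2, Gng8 and Gpr151 cross from below 0 to above 0 once PGC-1αf/f replicate 2 is left out, and Nhlh2 has no value in the last setting.

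The pathway genes fixed beside the members gave no call between the groups either. At an adjusted p of 0.05 in limma, 0 of 14 tested other medial habenula genes, 0 of 10 other nicotinic subunits, 0 of 4 other tachykinins and tachykinin receptors and 0 of 10 other gamma subunits passed. At an unadjusted p of 0.05 in limma, 1 of 10 nicotinic subunits and 1 of 10 gamma subunits were higher in nPGC-1α. None of the others passed, and the share over all 39142 probes was 11.9%, in either direction. The median differences of the 4 lists were -0.04, 0.08, -0.11 and 0.01 on the log2 scale, beside -0.04 over all probes.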

How the data were processed

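Total RNA of the hippocampus was hybridised to 1-colour (Cy3) Agilent mouse arrays, 10 in all. Groups and replicate numbers come from the sample labels. The deposited scanner files hold a processed intensity per spot, background-subtracted and detrended by Feature Extraction (11.5.1.1 in the headers, another version in the methods) and not normalised between arrays. A second deposited table holds log2 values made by the authors for 41606 probes, whose columns have medians of 9.92 to 9.93 and correlate with the scanner values of their own array at 0.999 to 1.00 across probes. Its scale and centring are unstated, and it was used as an alternative. Per-sample columns left unmapped numbered 0.

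Control and outlier-marked spots were dropped, repeated spots averaged, and levels scaled as described in the report. Symbols came through each probe's accession from RefSeq genes (assembly GRCm38.p6), which named 33767 of 56605 probes. The array was designed on another build, so probe coordinates are not given. The brightest tested probe stood for a gene with more than 1. A probe entered the test if 1 group or both had it well above background on 5 of 5 arrays and each group had at least 3 values, which left 39142. The test was two-sided limma (3.58.1, under R 4.3.3; lmFit, then eBayes) with no covariates and Benjamini-Hochberg adjustment. The labels do not state that every array is a separate mouse, so p-values measure the spread between these samples, which may be technical, and the number of arrays limits the precision.

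The members and the gene lists were chosen with earlier results of these data known. The text names all members, list genes over 2-fold higher on PGC-1αf/f replicate 2 or related to a member, the 10 genes most like the members, and label checks. Deviations of same-numbered arrays did not correlate above 0.1 in every pair, so the replicate number was not taken as a pairing. Checked on simulated data for nPGC-1α against PGC-1αf/f over 39142 probes, with 200 changed, the test recovered 74% of log2 changes of 1 and 95% of changes of 2, with 0 false calls where nothing was changed. The noise was drawn independently with each probe's own spread, and the changed probes were drawn from all. These rates therefore do not hold for members with a wide spread, such as Gng8, Gpr151 and Chrnb4 (SE 0.48, 0.51 and 0.61). Alternatives comprised different scalings, a different background correction (normexp, offset 50, on median pixel intensity), the authors' values, other filters, blocks, variance models, an exact Mann-Whitney test and each array left out in turn. Python 3.11.15 with pandas 2.3.3 read the files.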

Additional observations from a re-analysis of the deposited data

Results flagged for a closer look

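Of 59 groups of 4 or 5 array values examined for the members, the other habenular genes and the list medians, 10 held 1 array far from the rest. Chance gives about 2.95, but nothing is read from that number, since the members were chosen for their levels on PGC-1αf/f replicate 2. In PGC-1αf/f, replicate 2 stood apart for Tac2 (1.39, the others -0.15 to 0.03), Chrnb4 (-3.72, the others -6.54 to -5.81), Gng8 (-0.34, the others -3.16 to -2.73) and the Pou4f1 probe A_52_P1171614 (-2.69, the others -9.68 to -8.64). It also stood apart for both Slc5a7 probes (-2.97 and -2.99), for the Chat probe A_55_P1959430 (-2.72) and for the members' median deviation (2.02, the others -0.21 to -0.02). In nPGC-1α, replicate 1 stood apart for Chrna3 (-4.08, the others -6.81 to -6.05), and replicate 3 for the median deviation of choroid plexus markers (3.58, the others -0.73 to 0.13).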

How the results depend on the processing

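No member passed an adjusted p of 0.05 under any of the 26 alternatives, all limma fits but the exact Mann-Whitney test, which made 0 such calls over all probes, and the number past an unadjusted p stayed at 0 in 24 of them, rising to 1 without nPGC-1α replicate 1 (Chrnb4, then without a clear spot in nPGC-1α) and to 2 without both that array and PGC-1αf/f replicate 2 (0 to 1 over the single left-out arrays). Leaving out each array in turn moved the difference of Chrnb4 between -1.22 and -0.30, Gng8 between -0.50 and 0.20, Gpr151 between -0.61 and 0.18, Tac2 between -0.24 and 0.15, Nhlh2 between -0.093 and 0.34 and Pou4f1 between -0.24 and -0.07. With both of these arrays left out, Tac2 was at 0.11, Gng8 at 0.36 and Gpr151 at 0.17. With only the arrays that carry Y-linked transcripts, Tac2 was at 0.18, Chrnb4 at 0.33, Gng8 at 0.43 and Gpr151 at 0.41, with PGC-1αf/f replicate 1 as a lone array assumed to vary like nPGC-1α. Nhlh2 reversed to -0.093 with slide as a block, on slide 1 alone and without PGC-1αf/f replicate 5.

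With the replicate number as a block, Nhlh2 was at -0.20 (adjusted p = 0.696 in limma) and 0 members passed. The numbers were not taken as a pairing, because deviations of same-numbered arrays correlated at 0.0776 (replicate 2) to 0.356 over 34000 probes and not over 0.1 in every pair. All 5 correlations were above 0, 4 were over 0.1, and 3 of 5 arrays correlated best with their own number, a hint of pairing from the data. On slide 1 same-numbered arrays shared a column, and both arrays of replicate 5 lay on slide 2. Pairing and a shared position therefore cannot be told apart.

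The median deviation on PGC-1αf/f replicate 2 (2.02) was 1.32 with normexp, 1.69 with values raised to a common floor, 2.31 in the authors' values (7 members), 1.38 over the 5 genes well above background on all arrays, and 2.45 with the mean of probes or with the dimmer Pou4f1 probe, a setting added after the values were seen. The number of genes highest there was 4 of 5 under that filter. Under quantile normalisation and normexp, Chrna3 was highest on nPGC-1α replicate 1. The causes were not tested. Over all probes, no filter on dim probes gave 3871 higher and 748 lower calls at an adjusted p of 0.05, against 0 and 1. At an unadjusted p, 1328 were higher and 3334 lower, and quantile normalisation gave 1585 and 1125. Chrnb3 and the dimmer Pou4f1 probe lack a clear signal on 9 arrays, which limits them to bounds.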
